A study of Mus musculus with 6 samples.

Results

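Mitochondria divide and fuse continually, and damaged ones are removed by mitophagy, a selective form of autophagy. The 10 genes described here are Dnm1l, Mff and Fis1 of fission, Mfn1 and Mfn2 of fusion, Pink1 and Park2 of damage sensing, the cargo adaptor Optn, and the mitophagy receptors Bnip3 and Fundc1. They were taken by symbol from a table of 52636 genes, and all 10 passed the filter on low values. The samples were 6 libraries of ribosomal-RNA-depleted total RNA from mouse optic nerve. The treatment label of 3 libraries reads Mutant human ND6T14484C, a mutated gene for a complex I subunit that mitochondrial DNA encodes, and these form the hND6 group. That of the other 3 reads mCherry, a red fluorescent protein. The same protocol text, of a lentivirus with mutant human ND6 injected into the eye, stands beside both groups, so what the mCherry eyes received is not given. Strain, age, the promoter of the virus and whether each library was a separate animal are not given either, so p-values measure the spread between libraries, which may be partly technical.

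In fission, the dynamin-related GTPase encoded by Dnm1l is recruited from the cytosol to the outer membrane, where Mff is a main receptor, and constricts the organelle. The mitofusins join outer membranes, and Opa1 joins inner ones. Pink1, a kinase held on damaged mitochondria, phosphorylates ubiquitin and parkin, the ubiquitin ligase encoded by Park2. Optineurin binds the ubiquitin chains and the autophagosome, whereas Bnip3 and Fundc1 sit in the outer membrane and bind the autophagosome directly. Axons of retinal ganglion cells depend on mitochondria carried along the optic nerve, and inherited mutations of OPA1 cause optic atrophy. Axons hold no nuclei, so much of the RNA of a nerve comes from its glia.

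The libraries held between 20253637 and 34758873 reads assigned to genes, and each of the 10 genes had between 630 and 13579 reads in every library. Defining markers of optic nerve glia were abundant: the 6 oligodendrocyte markers together stood at 4478 to 6723 FPKM (fragments per kilobase of exon length, scaled to sequencing depth) in mCherry and 6394 to 7424 in hND6, and the 5 astrocyte markers at 1332 to 1854 and 1886 to 2305 FPKM. Some libraries stood apart. Summed over 8 neuronal markers, mCherry 3 stood at 539 FPKM and hND6 1 at 201, against 27.99 to 52.8 in the other libraries. All 5 photoreceptor markers were highest in hND6 2, at 175 FPKM together against at most 6.005 elsewhere. Red blood cell markers lay higher in every hND6 library for 5 of 5 genes, at 1363 to 2602 FPKM together against 179 to 467, and 4 of 5 plasma cell markers did so too. So did 3 of 5 microglia markers (P2ry12, Tmem119 and Csf1r), with the list at 184 to 285 FPKM in mCherry and 270 to 319 in hND6. The same held for 2 of 5 astrocyte, 1 of 6 oligodendrocyte, 1 of 4 meningeal fibroblast and 0 of 4 endothelium markers. Of all tested genes 12.6% lay higher in every hND6 library. Of 5 retinal ganglion cell markers, Pou4f1 and Pou4f2 were under 0.5 FPKM in all 6 libraries, Slc17a6 reached 1.081, Sncg stood at 3.08 to 5.99 and Rbpms at 15.2 to 32.6. The part of these differences in the values below was not tested. In bulk RNA, fewer cells of a type and less RNA per cell cannot be told apart.

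Mean FPKM in hND6 differed from mCherry by 32.2% for Pink1, 27.7% for Fis1 and -26.0% for Park2, and Mff and Bnip3 had nearly equal means in both groups. None of the 10 genes passed an adjusted p of 0.05 in limma, a moderated linear model run on log2(FPKM + 0.5) over 16157 genes, of which 7 passed (0.0433%). An unadjusted p under 0.05 was reached by 3 of the 10, against 15.2% of all tested genes: Fis1 and Pink1 on the higher side, where 9.11% of all genes stood, and Park2 on the lower side, with 6.05%. The groups did not overlap for 4 of the 10, against 22.8% of all tested genes. Of these 4, Pink1, Fis1 and Fundc1 lay higher in hND6 (12.6% of all genes did) and Park2 lower (10.2%). The median log2 fold change of the 10 was 0.04, and that of all tested genes -0.01. With the values as deposited 7 of the 10 lay higher and 3 lower, against 48.6% and 51.4% of all tested genes. These counts became 3 higher and 7 lower when every library was scaled to a constant sum. That scaling moved the median of all tested genes to -0.14. The counts were 5 and 5 with median-of-ratios scaling, and 6 and 4 with quantile normalisation. Of the sum held constant, Gm23935, an entry of 57 bp listed as a miRNA, made up 17.0% (mCherry 1) to 24.2% (mCherry 3). Its share in the hND6 libraries, 22.3% to 24.0%, lay within that range. The part of Gm23935 in the shift was not tested.

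**Figure D1:**
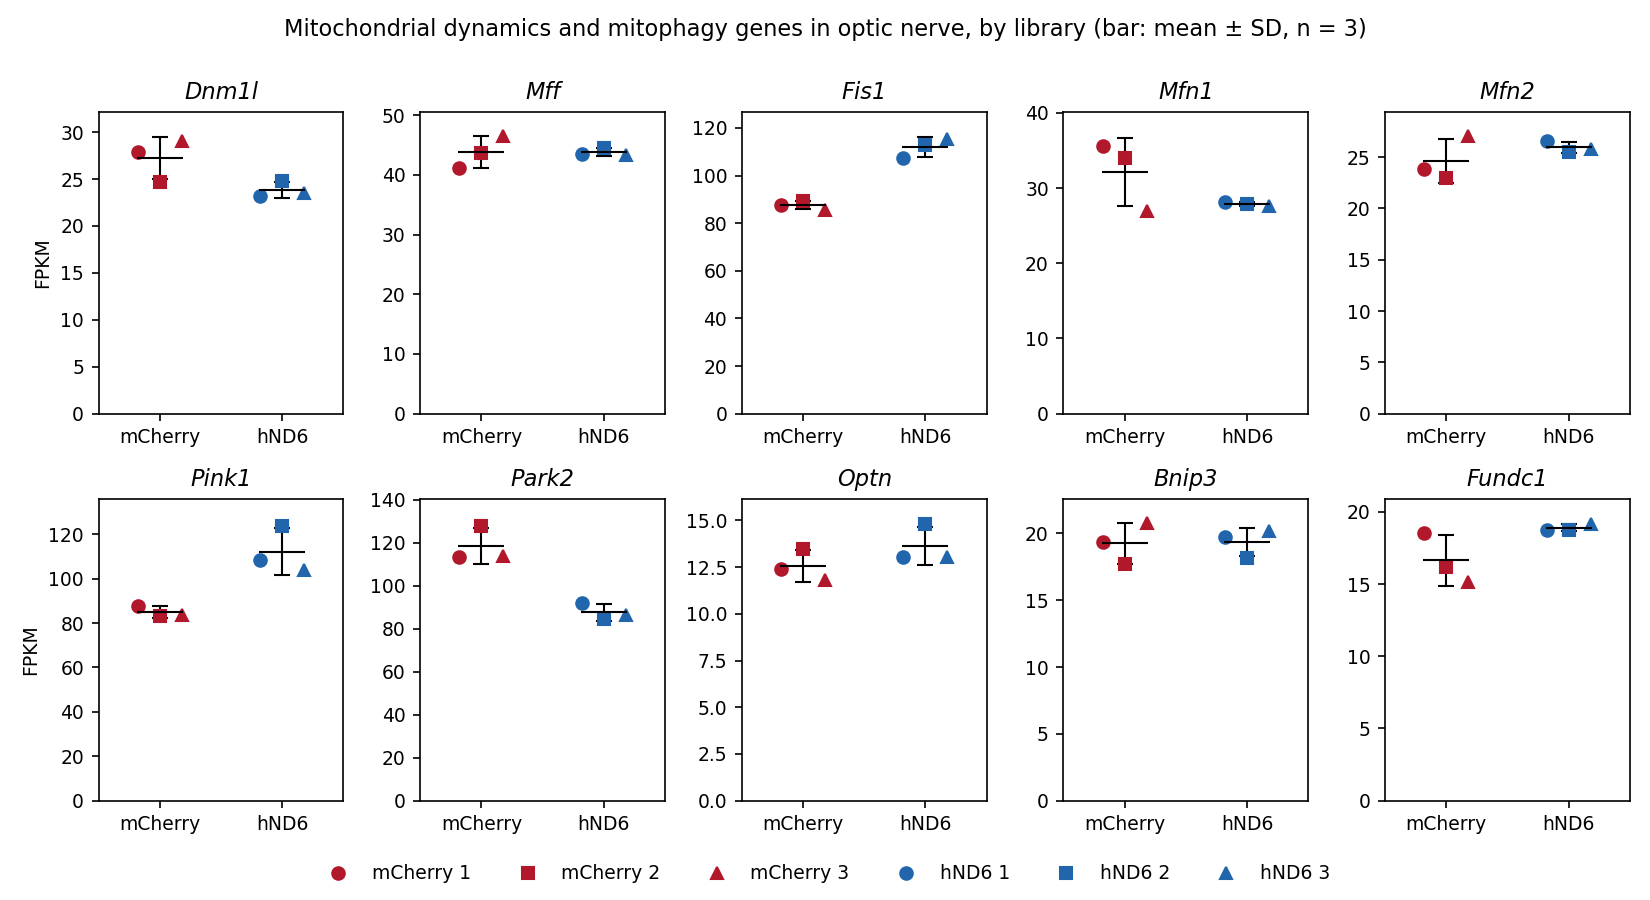
FPKM of the 10 genes (vertical axes from 0, a scale for each gene) in the 3 mCherry (red) and 3 hND6 (blue) libraries, with the symbol giving the replicate and black bars the mean ± SD. Fis1 and Pink1 stood higher in all 3 hND6 libraries, Park2 lower, and Mfn1 was low in mCherry 3 as in hND6.

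Among the fission genes, Fis1 encodes a small protein anchored in the outer membrane. Its FPKM values were 87.7, 89.3 and 85.7 in mCherry 1 to 3 and 107, 113 and 115 in hND6 1 to 3. The hND6 libraries were all above the mCherry libraries, and the gap was wider than the range within either group. Mean levels were 87.6 ± 1.79 FPKM in mCherry and 112 ± 4.17 in hND6 (SD, n = 3 each), which on the log2 scale put hND6 above mCherry by 0.35 ± 0.07 (SE; adjusted p = 0.163 in limma). Fis1 (chr5:136953275-136966232 of the mouse build mm10, plus strand) spans 12958 bp. The log2 difference of Fis1 was 0.2051 with libraries scaled to a constant sum and 0.1981 with quantile normalisation, over 1.5 times smaller than with the values as deposited, and the groups did not overlap in either setting.

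Dnm1l, the fission GTPase, stood at 27.9, 24.7 and 29.1 FPKM in mCherry and at 23.1, 24.8 and 23.5 in hND6. Its highest hND6 value, in hND6 2, lay just above its lowest mCherry value, in mCherry 2, so the groups overlapped by that pair alone. The log2 fold change was -0.19 ± 0.09, with a 95% interval of -0.40 to 0.02 (limma adjusted p = 0.369). On the constant-sum scale it was -0.3297 (adjusted p = 0.2319), and the groups did not overlap there or with median-of-ratios scaling. Mff, its receptor, stood at 41.2, 43.6 and 46.6 FPKM in mCherry and 43.6, 44.6 and 43.3 in hND6. All 3 hND6 values of Mff lay within the range of mCherry, and its log2 fold change of 0.00 had a 95% interval of -0.18 to 0.18. On the constant-sum scale Mff stood at -0.1433, with all hND6 libraries below all mCherry libraries. The median of all tested genes on that scale was -0.1409, and 24.3% of them had non-overlapping groups (23.1% with median-of-ratios scaling). The ratio of Fis1 to Dnm1l within a library, which a single scaling factor per library leaves as it is, was 3.14, 3.61 and 2.95 in mCherry and 4.63, 4.56 and 4.90 in hND6. This ratio was chosen after its values were seen and was not tested, and the groups did not overlap.

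The mitofusins differed from each other in their pattern over the libraries. Mfn1 stood at 35.5, 34.0 and 27.0 FPKM in mCherry 1 to 3 and at 28.2, 27.9 and 27.7 in hND6. The value in mCherry 3, the library with the most neuronal marker RNA, lay below all 3 hND6 values, and the other mCherry libraries lay well above them. The log2 fold change of Mfn1 was -0.19 ± 0.11 over all libraries (limma adjusted p = 0.473) and -0.31 without mCherry 3 (adjusted p = 0.0777). On the constant-sum scale Mfn1 stood at -0.3358 (adjusted p = 0.3101). Mfn2 stood at 23.8, 23.0 and 27.0 FPKM in mCherry and 26.6, 25.5 and 25.8 in hND6, with mCherry 3 highest of all 6. Its log2 fold change was 0.08 ± 0.08 (adjusted p = 0.703), 0.15 without mCherry 3, and -0.06 with libraries scaled to a constant sum. The ratio of Mfn1 to Mfn2 within a library was 1.49 and 1.48 in mCherry 1 and 2, 0.998 in mCherry 3, and 1.06, 1.09 and 1.07 in hND6. By this ratio, chosen after its values were seen, mCherry 3 stood with hND6 and away from its own group. Leaving mCherry 3 out raised the number of the 10 genes with non-overlapping groups from 4 to 6, by adding Mfn1 and Mfn2, while the share among all tested genes went from 22.8% to 41.2%.

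Of the damage sensors, the kinase gene Pink1 stood at 87.9, 83.2 and 83.6 FPKM in mCherry and at 109, 124 and 104 in hND6. Every hND6 library was above every mCherry library, and hND6 2, which also held the photoreceptor marker RNA, was highest. The means were 84.9 ± 2.62 and 112 ± 10.4 FPKM, 0.40 ± 0.09 apart on the log2 scale (adjusted p = 0.178). Without hND6 2 it was 0.32, and with libraries scaled to a constant sum 0.25, where the groups of Pink1 overlapped. Pink1 (chr4:138313412-138326307, minus strand) spans 12896 bp, nearly the same as Fis1.

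Fis1 and Pink1 lay furthest above 0 of the 10 and stood in every hND6 library above every mCherry library. The bases before their start sites are shown for that reason, from the RefSeq promoter table on GRCm38.p6, which matched 9 of the 10 symbols. Each run holds the 250 bases before the RefSeq start, on the gene's own strand, at chr5:136953025-136953274 (plus) for Fis1 and chr4:138326297-138326546 (minus) for Pink1. Capitals mark matches, on either strand, to any of CCAAT, the GC box GGGCGG, the ETS-type motif CCGGAAG, the E-box CACGTG and the cyclic AMP response motif TGACGTCA.
Fis1: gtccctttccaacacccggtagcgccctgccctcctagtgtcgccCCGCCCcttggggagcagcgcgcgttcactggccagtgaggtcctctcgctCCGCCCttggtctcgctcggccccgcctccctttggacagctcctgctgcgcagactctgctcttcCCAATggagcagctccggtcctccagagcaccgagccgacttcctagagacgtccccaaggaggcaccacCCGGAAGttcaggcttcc
Pink1: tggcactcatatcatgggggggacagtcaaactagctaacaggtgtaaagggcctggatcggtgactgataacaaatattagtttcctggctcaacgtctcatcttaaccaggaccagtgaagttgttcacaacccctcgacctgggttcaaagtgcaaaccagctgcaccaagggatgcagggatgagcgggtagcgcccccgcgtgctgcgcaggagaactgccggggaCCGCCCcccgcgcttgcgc
The Fis1 run is 66.8% G or C and holds the GC box at 205 and 154 bases before the start, CCAAT at 88 and CCGGAAG at 18. The Pink1 run is 57.2% G or C and holds only the GC box, 19 bases before the start. Its RefSeq start lies 11 bp inside the gene as the deposited table places it. Of 32851 windows of the same length in the RefSeq table, 32.7% held GGGCGG, 33.8% CCAAT, 6.91% CCGGAAG, 6.02% CACGTG and 1.55% TGACGTCA. A match is a description of letters and not a binding site.

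Park2, which encodes the ligase that Pink1 activates, stood at 113, 128 and 114 FPKM in mCherry and at 92.2, 84.6 and 86.2 in hND6. All hND6 libraries lay below all mCherry libraries. The means were 118 ± 8.23 and 87.6 ± 4.004 FPKM, and hND6 differed by -0.43 ± 0.09 on the log2 scale, with a 95% interval of -0.64 to -0.22 (adjusted p = 0.158), and the unadjusted p of 0.00199 was the smallest of the 10. Within a library the ratio of Pink1 to Park2 was 0.775, 0.651 and 0.734 in mCherry and 1.18, 1.47 and 1.21 in hND6, so that Pink1 stood below Park2 on the FPKM scale in every mCherry library and above it in every hND6 library. This ratio was also chosen after its values were seen and was not tested.

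The FPKM of Park2 needs its gene length beside it. Park2 (chr17:10840384-12063361, plus strand) spans 1222978 bp but has 3202 bp of exon, a ratio of 382, where the other 9 genes have ratios from 5.43 (Pink1) to 16.6 (Optn). Reads within introns, if counted, raise a value that is divided by exon length alone. In mean FPKM Park2 ranked first of the 10, at 103, ahead of Fis1 (99.7) and Pink1 (98.6). In RPM (reads scaled to depth) per kilobase of gene span it ranked last, at 0.265, where Pink1 stood at 17.9 and Fis1 at 7.17. The table lists 5 genes that lie wholly inside Park2, Pink1 or Mff on the same strand, and all 5 are listed at 0 in all 6 libraries. Values of 0 were common, as only 21517 (mCherry 1) to 23439 (mCherry 3) of 52636 genes stood above 0 in a library. Whether introns were counted is not given by the sources used. Genes overlapping members on the opposite strand stood at no more than 0.2997 FPKM.

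Fold changes of the 10 genes were ordered largely by gene span. The 3 genes that lay lower in hND6 were the 3 of longest span: Dnm1l (46796 bp), Mfn1 (49775 bp) and Park2. The 7 genes with shorter spans, of which Optn was the longest at 43404 bp, lay at or above 0. The Spearman correlation between span and log2 fold change was -0.89 across the 10 genes, a description of genes that share the same 6 libraries. Across 13678 tested protein-coding genes it was -0.54. The median log2 fold change was 0.03 for the 4419 protein-coding genes of 10 to 30 kb, the class that holds Pink1 (0.40), Fis1 (0.35), Fundc1 (0.18), Bnip3 (0.01) and Mff (0.00). It was -0.08 for the 3873 genes of 30 to 100 kb, the class of Mfn2 (0.08), Optn (0.11), Dnm1l (-0.19) and Mfn1 (-0.19). All 40 protein-coding genes over 1 Mb lay lower, with a median of -0.50, and 16 of them (40.0%) had non-overlapping groups. Park2, at -0.43, lay slightly above that median and had the second smallest p of the 40.

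**Figure D2:**
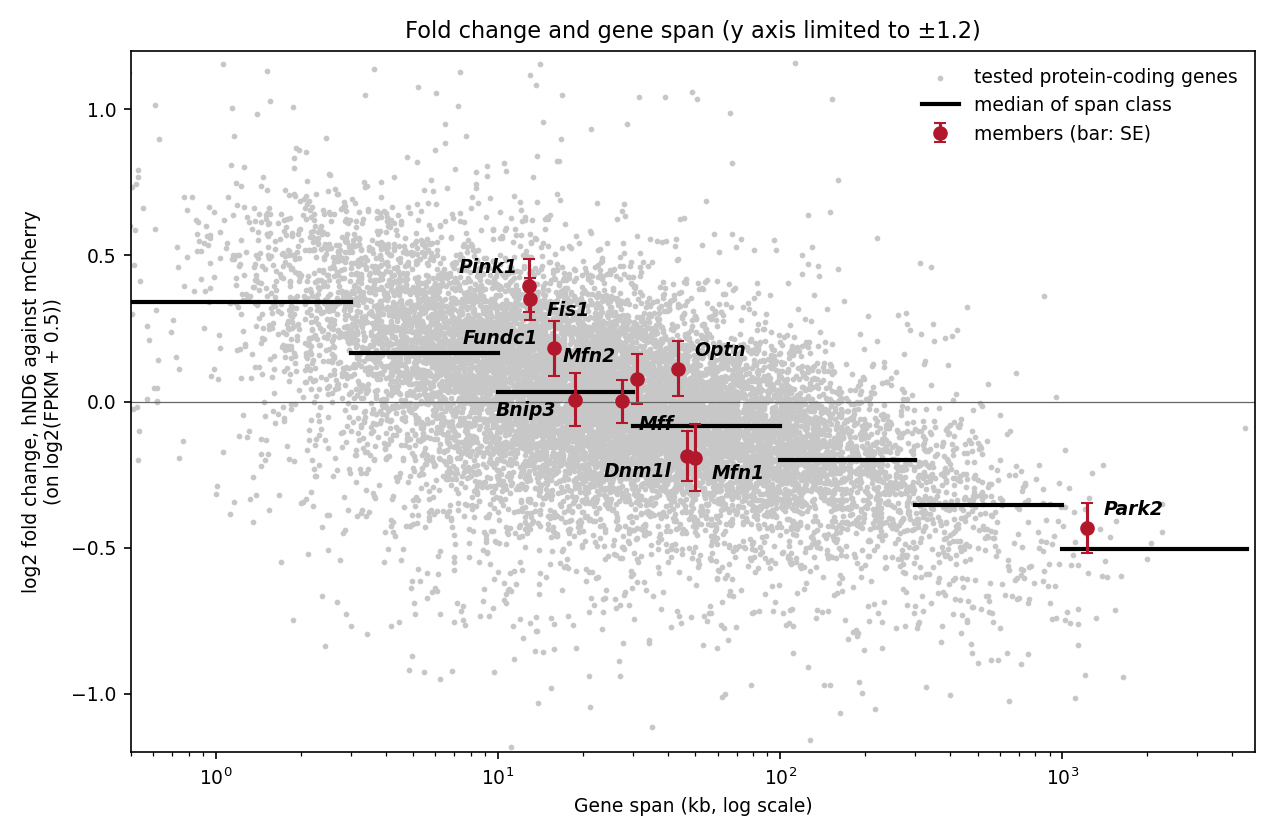
Log2 fold change of hND6 against mCherry (vertical axis, limited to ±1.2, with 42 genes beyond it) against gene span in kb (log axis), for tested protein-coding genes (grey), the median of each span class (black lines) and the 10 genes (red, bars SE). Pink1 and Fis1 lay above the median of their class, and Park2 at -0.43 lay near the median of -0.50 for genes over 1 Mb.

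With the trend of each library with gene span removed, the log2 fold change of Park2 was 0.00 (limma adjusted p = 0.9996) and its groups overlapped. Pink1 stood at 0.33 and Fis1 at 0.28 in that setting, both with non-overlapping groups and neither past the threshold (adjusted p = 0.360 and 0.348). In hND6 3, Pink1 then lay below Park2, at 6.66 against 6.88 on the log2 scale, unlike with the values as deposited. The log2 fold changes of Dnm1l and Mfn1 were -0.13 each with the span trend removed. Optn stood at 0.16 with non-overlapping groups, unlike with the values as deposited, and Fundc1 at 0.13 with overlapping groups. In that setting the groups of 18.1% of all tested genes did not overlap. Across the 10 genes the Spearman correlation between span and log2 fold change was -0.71 in that setting.

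**Figure D3:**
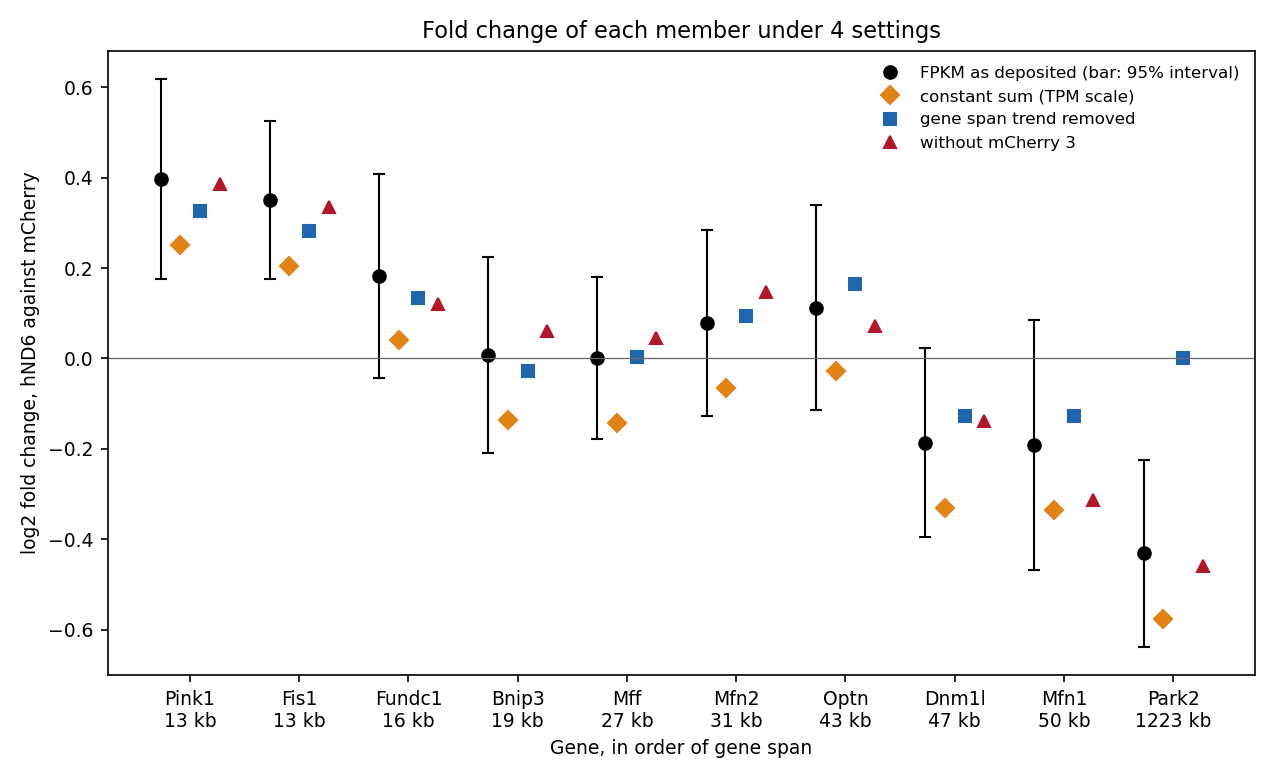
Log2 fold change of hND6 against mCherry (vertical axis) for the 10 genes in order of gene span, with FPKM as deposited (black, bars 95% interval), a constant sum per library (orange), the gene span trend removed (blue) and mCherry 3 left out (red). Pink1 and Fis1 lay above 0 in all 4 settings, and Park2 moved from -0.43 to 0.00 with the span trend removed.

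The receptor gene Fundc1 stood at 18.6, 16.2 and 15.2 FPKM in mCherry and 18.7, 18.8 and 19.2 in hND6. With the values as deposited the groups did not overlap, although mCherry 1 came close to hND6 1. The log2 fold change was 0.18 ± 0.09, with a 95% interval of -0.04 to 0.41 (limma adjusted p = 0.405). It was 0.04 with libraries scaled to a constant sum, where the groups overlapped, as they did with the span trend removed. Bnip3, a receptor gene known to be induced when oxygen is low, stood at 19.3, 17.7 and 20.7 FPKM in mCherry and 19.7, 18.1 and 20.2 in hND6. Its hND6 values all lay within the range of mCherry, with a 95% interval of -0.21 to 0.22 around 0.01. The adaptor gene Optn was the least abundant of the 10 by FPKM, at 12.4, 13.5 and 11.8 in mCherry and 13.0, 14.8 and 13.0 in hND6. With the values as deposited its groups overlapped and its log2 fold change was 0.11 ± 0.09 (adjusted p = 0.611), with -0.03 on the constant-sum scale.

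The members of these pathways beside the 10 were taken from 7 lists of 100 gene symbols, some being alternative symbols of the same gene. Of these symbols 95 were in the table and 92 were tested. None passed the adjusted threshold in limma (smallest adjusted p = 0.148). An unadjusted p under 0.05 was reached by 22 of the 92 (23.9%), 12 higher and 10 lower. Of all tested genes 15.2% reached it, 9.11% higher and 6.05% lower. The groups did not overlap for 33 of the 92 (35.9%), 17 higher and 16 lower, where all tested genes gave 22.8%. Their median log2 fold change was -0.01, the same as that of all tested genes. As deposited 42 lay higher and 50 lower, on the constant-sum scale 22 and 70, and with the span trend removed 50 and 42. On the constant-sum scale their median was -0.15, and that of all tested genes was -0.14. The constant-sum counts of each list below stand beside that same median of all tested genes. Here too span and fold change as deposited ran in opposite directions, with a Spearman correlation of -0.61 across these genes, which share the 6 libraries.

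**Figure D4:**
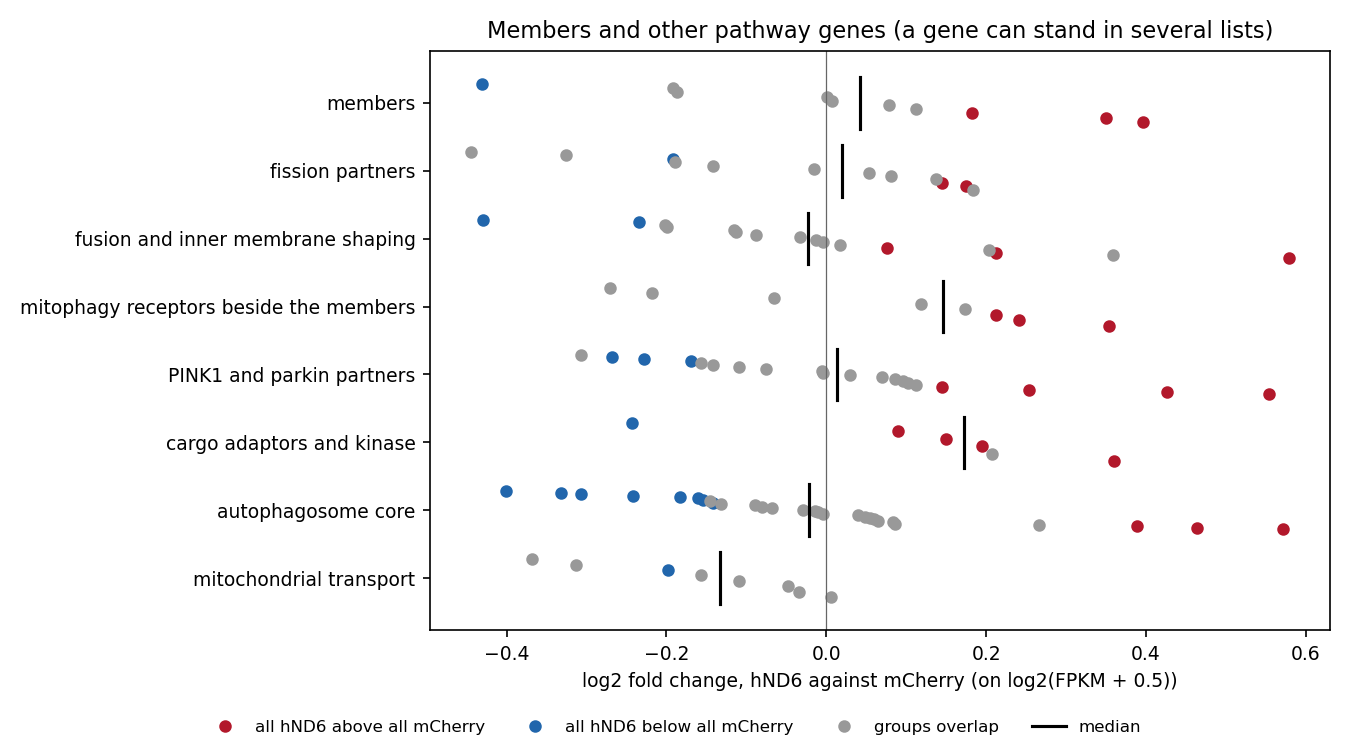
Log2 fold change of hND6 against mCherry (horizontal axis) for each tested gene of the 10 members and of the 7 other lists, coloured by whether all hND6 libraries lay above (red) or below (blue) all mCherry libraries, or the groups overlapped (grey), with black lines at list medians. No gene passed an adjusted p of 0.05. The autophagosome list of 28 genes held 3 above and 8 below with non-overlapping groups, against 12.6% and 10.2% of all tested genes. With the gene span trend removed, 15 of the 28 lay higher and 13 lower.

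Among mitophagy receptors 5 of 8 genes lay higher (median 0.15), 4 of 8 on the constant-sum scale (median 0.0016) and 6 of 8 with the span trend removed (median 0.0355). Bnip3l, the close relative of Bnip3 that clears mitochondria from maturing red blood cells, stood at 37.3, 37.9 and 32.2 FPKM in mCherry and at 42.4, 47.8 and 47.4 in hND6. Its groups did not overlap, unlike those of Bnip3, and the log2 fold change was 0.35 ± 0.10 (limma adjusted p = 0.207). Whether Bnip3l and Bnip3 differ in their change was not tested. The red blood cell markers given above lay higher in the same 3 libraries, and their part in the level of Bnip3l was not tested. Phb2, an inner membrane receptor, and Fundc2, the relative of Fundc1, had log2 fold changes of 0.21 and 0.24, also with non-overlapping groups. With the span trend removed Phb2 stood at 0.03, Fundc2 at 0.18 and Bnip3l at 0.34.

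Among cargo adaptors and their kinase 5 of 6 genes lay higher (median 0.17), and 4 of 6 on the constant-sum scale (median 0.03). Sqstm1, the adaptor p62, stood at 94.1, 93.5 and 98.2 FPKM in mCherry and 113, 126 and 129 in hND6, every hND6 library above every mCherry library (log2 fold change 0.36 ± 0.08, limma adjusted p = 0.178). Tollip lay higher by 0.19, and Tbk1, the kinase that phosphorylates optineurin, stood at -0.24, each with non-overlapping groups. Of 20 partners of Pink1 and parkin 10 lay higher and 10 lower (median 0.01), and 4 and 16 on the constant-sum scale. The outer membrane import genes Tomm22 (0.55) and Tomm7 (0.43), short genes of 2002 and 5218 bp, lay higher, and Ambra1, a regulator of autophagy spanning 188625 bp, lay lower (-0.27). With the span trend removed these became 0.29, 0.25 and -0.07.

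The autophagosome core list had 11 of 28 genes higher and 17 lower (median -0.02), 4 and 24 on the constant-sum scale, and 15 and 13 with the span trend removed (median 0.02). Its smallest p belonged to Gabarap, which encodes a ubiquitin-like protein joined to the autophagosome membrane and stood at 69.3, 64.0 and 70.3 FPKM in mCherry and 89.2, 95.02 and 97.1 in hND6 (0.46 ± 0.08, adjusted p = 0.148). Its relative Gabarapl2 had 0.39 ± 0.08 (adjusted p = 0.175). The groups of neither gene overlapped. Atg10, a conjugating enzyme gene of 288613 bp, stood at -0.40, and at -0.15 with the span trend removed. Gabarap and Gabarapl2 stood at 0.26 and 0.32 in that setting.

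Fission partners were evenly split, 6 of 12 higher (median 0.02; 4 of 12 on the constant-sum scale), with Mtfr1l at 0.18, Slc25a46 at -0.19 and Spire1 at -0.19. With the span trend removed these stood at 0.08, -0.18 and -0.04. In the list of fusion and inner membrane shaping 6 of 16 lay higher (median -0.02), 4 of 16 on the constant-sum scale and 8 of 16 with the span trend removed. Opa1, the inner membrane fusion GTPase, stood at 17.5, 16.8 and 18.4 FPKM in mCherry and 17.2, 17.0 and 18.1 in hND6. Its hND6 values lay inside the range of mCherry, and the groups differed by -0.01 ± 0.08 on the log2 scale (adjusted p = 0.951). Stoml2, a scaffold gene of the inner membrane, lay furthest above 0 in that list, at 0.58 ± 0.15 (adjusted p = 0.202), while Apoo, a gene of the cristae-organising complex, stood at -0.43 ± 0.12 (adjusted p = 0.217). Of 8 genes of mitochondrial transport 7 lay lower (median -0.13), 8 on the constant-sum scale, and 6 with the span trend removed (median -0.04). They included Trak1 (-0.20), Rhot1 (-0.16) and Kif5c (-0.37), of which Kif5c was highest in mCherry 3, at 47.1 FPKM against 18.7 to 25.4 in the other libraries. With the span trend removed Trak1 stood at -0.0062, Rhot1 at -0.08 and Kif5c at -0.19.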

How the data were processed

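RNA of mouse optic nerve was profiled in 3 mCherry and 3 hND6 libraries. The deposited values are FPKM per the labels, exon-length and depth scaled fragment values made by the authors. The deposited gene table gives gene span and exon length. Tools named in the submitters' processing notes, without roles, are STAR, HTSeq, Trim Galore and CASAVA 1.4, and the build names are GRCm38 and mm10. Multiplied by exon length, at least 99.99% of FPKM values were whole steps (within 0.1 read), which gave reads per gene. The 6 single-library tables equalled the combined table. The test covered genes averaging 0.5 FPKM or more, on log2(FPKM + 0.5) with limma 3.58.1 in R 4.3.3 (intensity trend, Benjamini-Hochberg over all 16157 genes, threshold 0.05). Fold changes on that scale understate changes of low genes. The script was tested on simulated data.

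The members and lists were chosen with earlier results of these data known. The text names all 10 members, the 3 genes of smallest p in each of 7 pathway lists, Opa1 and Bnip3l. Gm23935 was named after its values were seen. The ratios were chosen after values were seen. Alternatives were other pseudocounts (0.1 and 1), other filters, other scalings, no trend, library weights, a replicate block, the gene span trend removed (lowess of each library's deviation on log2 span) and libraries left out. A voom fit of those reads, and counts of non-overlapping groups and of the pathway lists by setting, were added after seeing the data.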

Additional observations from a re-analysis of the deposited data

How the results depend on the processing

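None of the 10 members passed the adjusted threshold in any of 19 alternative settings of limma, voom included, and 2 to 4 of them had an unadjusted p under 0.05, where the share of all tested genes ran from 5.81% (no filter) to 22.2% (without mCherry 3). The smallest adjusted p of a member was 0.0695 (Park2 without mCherry 3). Pink1, Fis1 and Fundc1 stayed above 0, and Mfn1 and Dnm1l below 0, in all 19. The other 5 changed sign somewhere. On the constant-sum (TPM) scale Mfn2 stood at -0.0648, Mff at -0.1433, Bnip3 at -0.1352 and Optn at -0.0282. The median of all tested genes was -0.1409 on that scale, against -0.0102 with the values as deposited. With median-of-ratios scaling Mff stood at -0.0082 and Bnip3 at -0.0020, with quantile normalisation Mff at -0.0335, and with the gene span trend removed Park2 at 0.0003 and Bnip3 at -0.0268. With libraries left out, Mff ran from -0.0412 to 0.0497 and Bnip3 from -0.0503 to 0.0609. The cause of these reversals was not tested. Members with non-overlapping groups numbered 4 to 6 with libraries left out, where 27.9% to 53.7% of all tested genes did not overlap, and 3 to 5 under other scalings or with the span trend removed (18.1% to 24.3%). Leaving out a library cannot make non-overlapping groups overlap.

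The 7 genes called over the whole table became 0 with no filter (3060 at an unadjusted p under 0.05), 0 with the replicate block (1789) and 0 with voom (2464), and ran from 0 (without mCherry 2, with 1947 unadjusted) to 131 (without mCherry 3) with single libraries left out: 1 without mCherry 1, 2 without hND6 1, 3 without hND6 2 and 6 without hND6 3. Without mCherry 3 and hND6 1 together it was 1. The cause was not tested. Same-numbered libraries did not deviate together (correlations of -0.416, 0.363 and -0.197), so the numbers were not taken as pairs. The block gave adjusted p = 0.413 for Park2, 0.418 for Pink1 and 0.416 for Fis1, and changed no call among the members. The planned edgeR and DESeq2 tests were not run, and voom on the reads recovered from the FPKM values was run instead. With 3 libraries a group, a p that misses the threshold does not show equal levels. Exon and intron reads could not be told apart.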
